A study of Mus musculus with 12 samples.

Results

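The nuclear genes of oxidative phosphorylation were followed in mouse testis RNA-seq data. Members were taken by symbol, and complexes are given here by symbol family, not by the place of each protein. Names that start with Nduf followed by a, b, c, s or v and a digit stand for complex I, and Sdha to Sdhd for complex II. Names that start with Uqcr stand for complex III, with Cox and a digit from 4 to 8 for complex IV, and with Atp5 for ATP synthase (complex V). The cytochrome c genes Cycs and Cyct were added. Members were 89 of the 20718 genes in the table: 40 Nduf, 4 Sdh, 8 Uqcr, 18 Cox, 17 Atp5 and 2 cytochrome c genes. The libraries came from testes of F0 mice whose strain is labelled IRC, that received lentivirus for knockdown (F0_5251KD) or overexpression (F0_5251OV) of the long non-coding RNA lncRNA5251, and each group had 3 libraries. F0_3NC mice received the control virus on the LV3 vector, the backbone of the knockdown virus, and F0_5NC mice that on LV5, the backbone of the overexpression virus. In the study's methods the mice were injected into the testis at 4 weeks of age, mated at 9 weeks for 4 days and sampled 4 days later, and 3 shRNAs were mixed for the knockdown. No table row was matched to lncRNA5251, so its level was not analysed here. Whether replicate libraries are different animals is not stated in the labels, and p-values then cover only how far these libraries differ.

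Oxidative phosphorylation passes electrons from NADH and succinate through complexes I to IV of the inner mitochondrial membrane, and the proton gradient this builds drives ATP synthase. Most of its subunits are encoded in the nucleus, and several subunits of complex IV, together with cytochrome c, exist as pairs of genes, one used in most cells and one used in the male germ line. Cox6b2, Cox7b2 and Cox8c are the testis isoforms of complex IV subunits whose general forms are Cox6b1, Cox7b and Cox8a, and Cyct encodes the testis form of the electron carrier cytochrome c, whose general form is Cycs.

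Totals lay between 15431383 and 16355720 estimated counts. Of the 12 libraries, F0_3NC replicate 2 and F0_5251OV replicate 1 stood apart: the deviation of a gene from its mean over all libraries followed the GC content of its transcripts, with Spearman's rho of -0.67 and -0.65 over 15875 genes, against 0.02 to 0.34 in the other 10. Medians over members, their counts at an unadjusted p under 0.05, and named estimates that moved by over 1.5 times are also given without both. Markers of elongating spermatids summed to between 19788 and 24807 CPM, which are counts relative to the library total, in every library. Over the libraries, 7 skeletal muscle markers summed to 2.01 to 4.81 CPM, 8 Sertoli cell markers to 733 to 1501, 5 red cell markers to 37.0 to 109 and the 3 of 5 epididymis markers in the table to 1.75 to 110.8, and none of the markers in the table was at 0 in all libraries.

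Members were among the more abundant genes of the testis. The values compared between genes were taken as FPKM, that is, counts divided by transcript length and by the library total. The length that these values imply was not the same in every library. For Atp5mpl, 1136 counts gave 262 FPKM in F0_5251OV replicate 1 and 1038 gave 205 in replicate 3, at totals of 15997022 and 15959488. The median over members of the mean FPKM of the 12 libraries was 89.8, above 93.5% of all genes, and 82 members were at 10 or more and 43 at 100 or more. Together they took between 0.61% and 0.736% of all counts of a library. Cox genes had the highest family median, 254 FPKM, followed by Atp5 genes with 132, Uqcr genes with 110, Nduf genes with 69.4 and Sdh genes with 44.7.

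Within complex I, Ndufa12, an accessory subunit, was the highest with a mean of 302 FPKM. At the other end, Ndufb4b was listed at a mean of 0.59, and Ndufb4b, Ndufb4 and Ndufb4c had counts that were not whole, as arises when reads are shared between near-identical copies, so their split is uncertain. The same holds for Ndufa13 and Uqcrc2 in every library and for Atp5f1 in 2. In complex II, Sdhb, the iron-sulfur subunit, was highest (mean 75.1) and the membrane anchor Sdhc lowest (31.3). In complex III, Uqcrb was highest (176) and Uqcrq lowest (54.8). That order is one of FPKM, since in estimated counts summed over the libraries Uqcrq had 14248 and Uqcrb 12297. Among ATP synthase genes, Atp5b, the catalytic beta subunit, had 328 FPKM and Atp5s, a coupling factor, 20.3. In complex IV the range was widest, from Cox8c with 655 FPKM, the highest of all members, to Cox8b, which had 0 counts in every library.

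**Figure D1:**
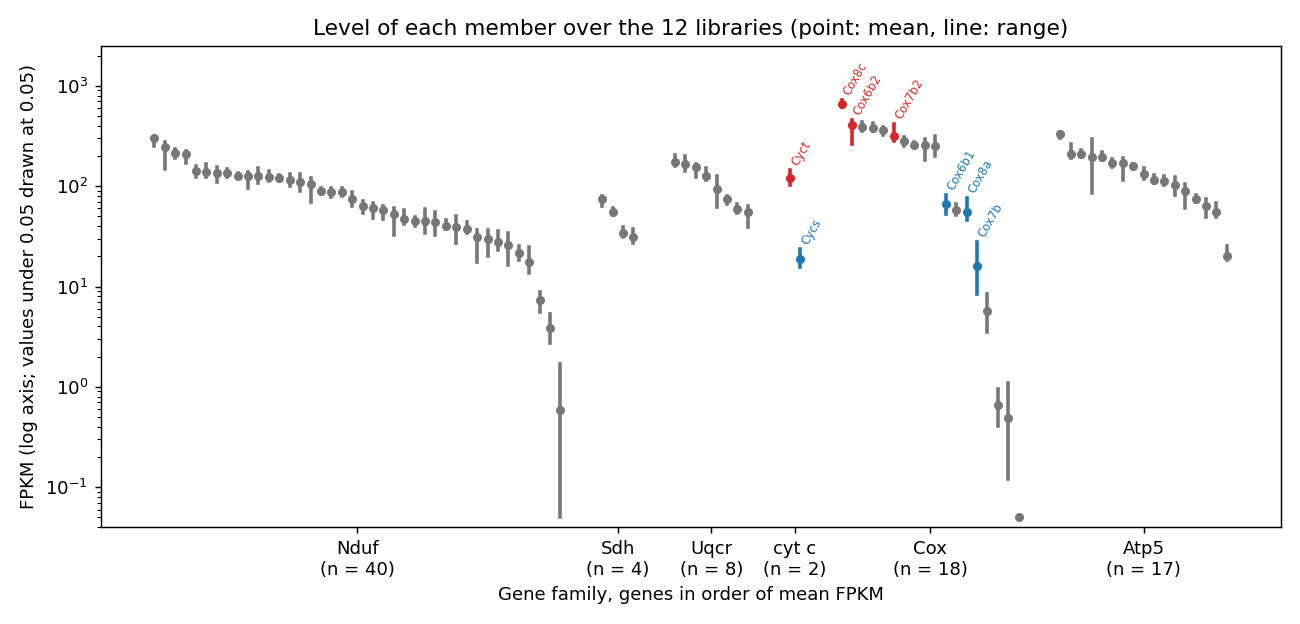
FPKM of the 89 members on a log axis, by family and in order of the mean; points are means of 12 libraries and lines their range. The 4 testis isoforms (red) lie above their general partners (blue), with Cox8c highest at a mean of 655 FPKM and Cox8b at 0 drawn at the lower limit.

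Most members varied little over the 12 libraries. For 57 the highest library was under 1.5 times the lowest, with Cox5a, a nuclear-encoded subunit of complex IV, the steadiest at 1.09 times. For 8 it was at least 2 times. Among these, Atp5e, the epsilon subunit of ATP synthase, ranged 3.45-fold at a mean of 195 FPKM, and Cox7b 3.26-fold at a mean of 16.2, while Cox4i2, Cox7a1 and Cox6a2 were low.

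Isoforms known from other tissues were low beside their partners. Cox6a2, the form of heart and skeletal muscle, had 1 to 9 counts in a library and at most 1.09 FPKM, whereas Cox6a1 lay between 199 and 319. Cox7a1, also a muscle form, lay between 3.54 and 8.34 FPKM, and its partner Cox7a2 between 254 and 309. Cox4i2, known from lung and from low oxygen, lay between 0.41 and 0.96, and Cox4i1 between 326 and 390. Ndufa4l2, a gene induced by low oxygen, differed from these: its range of 16.3 to 34.1 FPKM was close to the 34.5 to 59.0 of Ndufa4. In estimated counts, which are not divided by length, the ranges overlapped, with 218 to 440 for Ndufa4l2 and 204 to 333 for Ndufa4.

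The testis isoforms were higher than the general ones in all 12 libraries, for all 4 pairs. In the 3 F0_3NC libraries, in order of replicate number, Cox6b2 had 412, 263 and 401 FPKM and Cox6b1 had 65.3, 70.8 and 65.0. The F0_5251KD libraries had 412, 429 and 378 of Cox6b2 and 76.3, 62.2 and 67.2 of Cox6b1. In F0_5NC the values were 461, 449 and 417 for Cox6b2 and 81.4, 59.3 and 69.0 for Cox6b1, and in F0_5251OV 332, 462 and 451 for Cox6b2 and 78.0, 57.2 and 52.3 for Cox6b1. Cox6b2 was therefore lowest in the 2 libraries that follow GC, and the 4 groups of Cox6b1 overlapped. The ratio of Cox6b2 to Cox6b1 had a median of 6.10 and a range of 3.72 to 8.63.

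Cox7b2 had 296, 416 and 306 FPKM in F0_3NC against 290, 283 and 279 in F0_5251KD, and 315, 292 and 293 in F0_5NC against 416, 293 and 303 in F0_5251OV. Both values of 416 are those of the libraries that follow GC, and Cox7b2 transcripts are low in GC (36.7%), whereas those of Cox6b2 hold 55.7%. Cox7b, the general partner, had 14.9, 21.6 and 14.8 FPKM in F0_3NC. Under knockdown it had 27.6, 12.2 and 14.7, and it had 14.3, 10.1 and 10.1 in F0_5NC against 23.7, 21.7 and 8.48 in F0_5251OV. Its spread within F0_5251OV exceeded every difference between group means. The ratio of Cox7b2 to Cox7b had a median of 20.3 and a range of 10.5 to 35.7, the widest of the 4 pairs.

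Cox8c was the steadiest of the testis isoforms. It had 637, 678 and 619 FPKM in F0_3NC against 670, 613 and 650 in F0_5251KD, and 642, 635 and 660 in F0_5NC against 723, 660 and 673 in F0_5251OV. Cox8a had 50.5, 53.5 and 51.9 in F0_3NC. Under knockdown it had 65.4, 52.0 and 49.8, and it had 76.0, 48.1 and 54.3 in F0_5NC against 55.9, 55.7 and 45.7 in F0_5251OV. Its highest values were in F0_5NC replicate 1 and F0_5251KD replicate 1, the 2 libraries where 7 Leydig cell markers summed to 3221 and 3086 CPM, against 1388 to 2296 in the other 10. Marker sums of spermatogonia (141 and 130 CPM), Sertoli cells (1501 and 992) and endothelium (44.6 and 43.4) were also highest in the same 2 libraries. The part of any of these cell types in the level of Cox8a was not tested. In bulk testis, fewer cells of a type and less RNA per cell cannot be told apart. The ratio of Cox8c to Cox8a had a median of 12.4 and a range of 8.45 to 14.7.

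Cyct had 125, 139 and 112 FPKM in the F0_3NC libraries and 110, 114 and 113 in those of F0_5251KD, and it had 116, 104 and 123 in F0_5NC against 144, 117 and 119 in F0_5251OV. Cycs had 20.3, 23.1 and 16.1 in F0_3NC. Under knockdown it had 19.2, 16.02 and 18.7, and it had 23.6, 17.6 and 18.6 in F0_5NC against 21.6, 15.7 and 16.2 in F0_5251OV. For both genes the 3 libraries of each virus overlapped with the controls on the same vector. The ratio of Cyct to Cycs had a median of 6.37 and a range of 4.93 to 7.48, but it rested on length. In estimated counts, which are not divided by length, the ratio had a median of 1.14 and a range of 0.898 to 1.36. The FPKM of Cycs imply a transcript of 2931 bases and those of Cyct one of 534, as medians over the libraries. For the other pairs the count ratio kept the testis isoform ahead, with medians of 6.73 for Cox6b2 to Cox6b1, 9.56 for Cox7b2 to Cox7b and 10.3 for Cox8c to Cox8a.

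**Figure D2:**
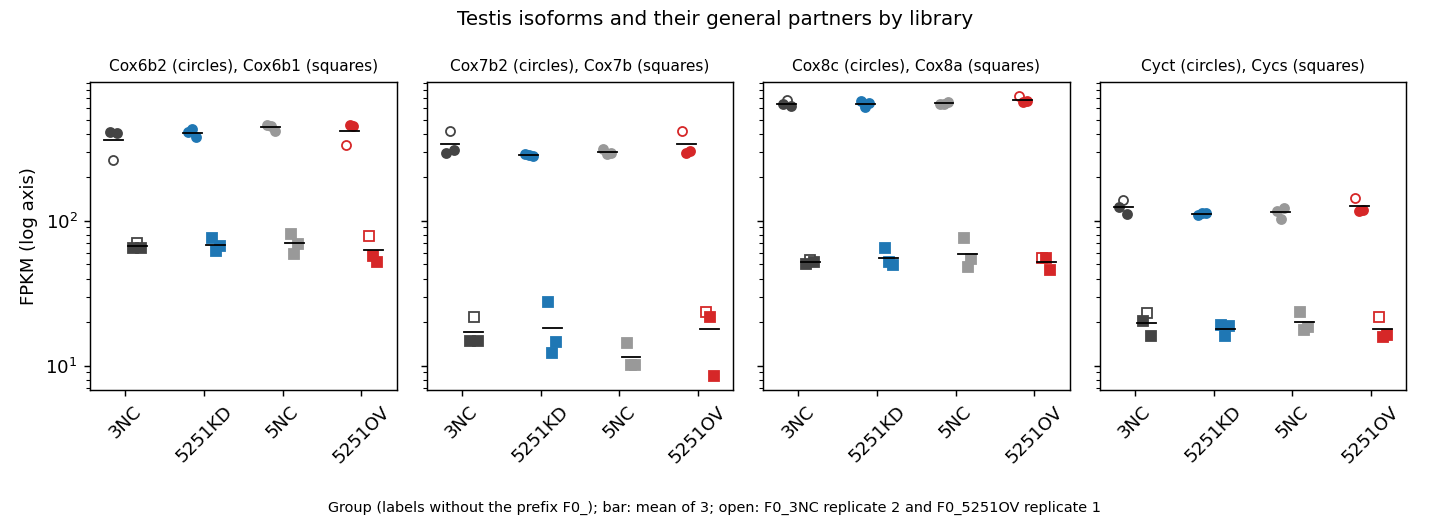
FPKM (log axis) of each testis isoform (circles) and its general partner (squares) in the 3 libraries of each group, with bars at the group means and open symbols for F0_3NC replicate 2 and F0_5251OV replicate 1. Circles lie above squares in every library, and the open circles of Cox7b2 (both 416 FPKM) lie above and those of Cox6b2 (263 and 332 FPKM) below the rest.

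The log2 ratio of testis to general isoform did not pass the test between groups for any pair. Over the 4 groups together, a two-sided exact permutation test gave p = 0.7219 for Cox6b2 to Cox6b1, 0.4579 for Cox7b2 to Cox7b, 0.5736 for Cox8c to Cox8a and 0.1889 for Cyct to Cycs, each 0.7219 after adjustment over the 4 pairs. Between groups of 3 the smallest exact p is 0.1, and 2 of the 12 comparisons reached it. In FPKM, the Cyct to Cycs ratio was higher in every F0_5251OV library than in every F0_5NC library, by 0.31 on the log2 scale (means 2.84 ± 0.09 and 2.53 ± 0.21, SD, n = 3, exact p = 0.1). In estimated counts the ratios of these groups overlapped. F0_5251OV replicate 1 had 1183 of Cyct and 1007 of Cycs, a lower ratio than the 1025 and 853 of F0_5NC replicate 3. The Cox7b2 to Cox7b ratio was lower in every F0_3NC library than in every F0_5NC library, by 0.41 (means 4.32 ± 0.05 and 4.72 ± 0.23, SD, n = 3, difference -0.41, exact p = 0.1).

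The promoters of 2 pairs, Cyct with Cycs and Cox6b2 with Cox6b1, are shown as examples of genes that encode forms of the same protein. They are the 250 bases before the start site from RefSeq, build GRCm38.p6, all on the minus strand: Cyct at chr2:76360454-76360703, Cycs at chr6:50566570-50566819, Cox6b2 at chr7:4753095-4753344 and Cox6b1 at chr7:30626115-30626364. Capitals mark matches on either strand to a cyclic AMP response element (TGACGTCA), an NRF-1 core (GCATGCGC), an ETS core, a GC box or a CCAAT box. The ETS core searched for was CCGGAAG. The CCAAT box is spelled in its name.
Cyct: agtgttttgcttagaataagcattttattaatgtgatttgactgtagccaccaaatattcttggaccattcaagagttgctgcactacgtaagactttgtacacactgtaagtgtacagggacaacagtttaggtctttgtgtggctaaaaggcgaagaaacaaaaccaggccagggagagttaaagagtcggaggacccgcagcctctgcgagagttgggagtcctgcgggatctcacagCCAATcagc
Cycs: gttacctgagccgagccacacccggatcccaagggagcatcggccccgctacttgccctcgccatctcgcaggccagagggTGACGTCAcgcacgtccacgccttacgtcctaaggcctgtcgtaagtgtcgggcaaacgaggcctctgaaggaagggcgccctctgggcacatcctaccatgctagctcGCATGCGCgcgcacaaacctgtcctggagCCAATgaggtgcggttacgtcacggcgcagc
Cox6b2: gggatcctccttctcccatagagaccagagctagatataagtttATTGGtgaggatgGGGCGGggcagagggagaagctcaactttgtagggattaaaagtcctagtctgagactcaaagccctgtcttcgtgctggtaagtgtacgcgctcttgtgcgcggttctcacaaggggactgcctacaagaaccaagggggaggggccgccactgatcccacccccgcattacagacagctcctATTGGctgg
Cox6b1: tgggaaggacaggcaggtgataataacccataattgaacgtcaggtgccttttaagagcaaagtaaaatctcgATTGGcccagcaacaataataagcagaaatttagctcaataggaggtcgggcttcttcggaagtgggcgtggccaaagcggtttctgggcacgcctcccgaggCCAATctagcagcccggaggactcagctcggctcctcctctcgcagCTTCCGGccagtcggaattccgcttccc
Cycs held 1 cyclic AMP response element, 1 NRF-1 core and 1 CCAAT box, and Cyct a CCAAT box alone. Cox6b1 held 2 CCAAT boxes and 1 ETS core, and Cox6b2 held 2 CCAAT boxes and 1 GC box. Of the genes whose promoters are not shown, Cox7b2 had 4 matches, to CCAAT boxes and a GC box. Its partner Cox7b had 1 match, a CCAAT box, and so did Cox8a. Of the 89 members, 71 had a promoter in the RefSeq table, with 76 promoters in all. The NRF-1 core was in 11.8% of these and in 2.26% of all 32851 promoters of the same length, the cyclic AMP response element in 6.58% and 1.55%, the ETS core in 15.8% and 6.91%, the CCAAT box in 43.4% and 33.8%, and the GC box, written GGGCGG, in 32.9% and 32.7%. A match is a description of the letters only. The RefSeq table gave no promoter of Cox8c.

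No member passed the test between the knockdown group and its controls. Of the 89 members, 86 had enough counts for the test across all genes (Cox8b, Cox6a2 and Ndufb4b had not), and edgeR's quasi-likelihood test with Benjamini-Hochberg adjustment called 0 of them between F0_5251KD and F0_3NC, where 0.0245% of all 16296 genes were called; the smallest adjusted p of a member was 0.897. DESeq2 and a test on counts summed per group called 0 members as well, while they called 20 and 143 of all genes. At an unadjusted p under 0.05 there was 1 of 86 members, 1.16%, beside 4.74% of all genes. With an offset for transcript GC there were 4 members (4.65%, beside 4.65% of all genes). The groups did not overlap in TMM-scaled CPM, the measure used for all such counts, for 9 members, beside 11.8% of all genes. The median log2 fold change of members was 0.07, beside 0.00 for all genes, and 64 members lay above 0. Without the 2 libraries that follow GC the median was 0.02 with 51 members above 0. In that fit 1 member had an unadjusted p under 0.05 (1.16%, beside 3.78% of all genes). Markers of 3 other cell types also lay higher in every F0_5251KD library than in every F0_3NC library: 5 red cell markers summed to 68.5 to 109 against 54.2 to 61.7 CPM, 5 endothelial markers to 37.9 to 43.4 against 31.5 to 34.8, and 5 adipocyte markers to 20.4 to 29.3 against 19.0 to 20.1. Their part in the median was not tested.

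Ndufa2, an accessory subunit of complex I, had 98.9, 88.9 and 98.1 FPKM in F0_3NC and 111, 113 and 113 in F0_5251KD. The groups did not overlap, and the log2 fold change was 0.24 ± 0.12 (SE, adjusted p = 0.897 by edgeR). Cox7a2l, which helps to join complexes III and IV, had 57.3, 64.8 and 53.2 in F0_3NC and 51.9, 51.9 and 52.6 in F0_5251KD, a log2 fold change of -0.17 ± 0.08 (adjusted p = 0.897) that was -0.09 without the 2 libraries. The other members at the ends of this comparison were Ndufa11b (0.39 ± 0.19) and Ndufb4c (0.34 ± 0.21) above 0, and Cox7b2 (-0.25 ± 0.12) and Ndufs4, a complex I subunit (-0.18 ± 0.20), below 0. Without the 2 libraries these were 0.27, 0.13, -0.09 and 0.04. For Cox6b2 the log2 fold change was 0.18 ± 0.17 with all libraries and 0.00 without the 2. For the remaining isoforms it was 0.01 ± 0.07 for Cox8c, -0.16 ± 0.09 for Cyct, 0.04 ± 0.12 for Cox6b1, 0.08 ± 0.33 for Cox7b, 0.11 ± 0.14 for Cox8a and -0.15 ± 0.14 for Cycs. Without the 2 libraries it was -0.08 for Cyct, -0.03 for Cycs, 0.28 for Cox7b, 0.03 for Cox8c and 0.07 for Cox6b1. The 95% interval of the log2 fold change lay within ±1 for all 86 members, so a 2-fold change of any one lay outside its interval.

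No member passed the test between the overexpression group and its controls either. Between F0_5251OV and F0_5NC edgeR called 0 of 86 members, and 0% of all genes. DESeq2 and the test on summed counts also called 0 members, while they called 29 and 191 of all genes. The smallest adjusted p of a member was 0.552. At an unadjusted p under 0.05 there was 1 member, 1.16%, beside 8.77% of all genes. This count was 6 (6.98%, beside 8.32% of all genes) without the 2 libraries. It was 4 (4.65%, beside 9.57% of all genes) with the offset for transcript GC. The groups did not overlap for 10 members, beside 13.9% of all genes. The median log2 fold change of members was -0.01, with 42 of 86 above 0, and 0.03 with 57 above 0 without the 2 libraries. Sertoli cell markers summed to 747 to 900 CPM in F0_5251OV against 938 to 1501 in F0_5NC, smooth muscle markers to 61.6 to 72.4 against 81.9 to 108, and adipocyte markers to 18.6 to 19.6 against 20.7 to 28.2, none of which overlapped, and their part in the values of members was not tested. The 95% interval lay within ±1 for 85 members; the exception was Cox7b.

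Atp5mpl, a small subunit of ATP synthase, was the member with an unadjusted p under 0.05. It had 193, 202 and 199 FPKM in F0_5NC and 262, 204 and 205 in F0_5251OV. The groups did not overlap in FPKM, and the value of F0_5251OV replicate 1, a library that follows GC, stood above the rest. The estimated counts lay closer together, with 854, 948 and 915 in F0_5NC and 1136, 960 and 1038 in F0_5251OV. The log2 fold change was 0.22 ± 0.09 (adjusted p = 0.552 by edgeR). It was 0.16 without the 2 libraries and 0.27 with the offset for transcript GC. Ndufa11b, one of the lower complex I members, had 3.62, 2.76 and 2.92 in F0_5NC and 3.82, 5.36 and 4.02 in F0_5251OV, a log2 fold change of 0.39 ± 0.19 (adjusted p = 0.574 by edgeR). Cox7b had the largest estimate, 0.68 ± 0.34, and Cox4i2 had 0.38 ± 0.29. Below 0 were Ndufb11 (-0.28 ± 0.17) and Ndufa3 (-0.18 ± 0.11), accessory subunits of complex I, and Uqcr11 (-0.25 ± 0.18), a small subunit of complex III. For the isoforms the values were -0.05 ± 0.17 for Cox6b2, 0.19 ± 0.12 for Cox7b2, 0.11 ± 0.07 for Cox8c, 0.18 ± 0.09 for Cyct, -0.14 ± 0.13 for Cox6b1, -0.15 ± 0.14 for Cox8a and -0.11 ± 0.14 for Cycs. The 2 groups of Cox8c did not overlap in CPM but did in FPKM, where F0_5251OV replicate 2 had 659.57 and F0_5NC replicate 3 had 660.11. Without the 2 libraries the estimates were 0.10 for Cox6b2, 0.04 for Cox7b2, 0.09 for Cyct, -0.30 for Cox6b1, -0.27 for Cycs, 0.44 for Cox7b, -0.11 for Uqcr11 and -0.12 for Ndufa3.

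The 2 control groups, which differ in the vector and in whatever else went with it, were set against each other to give the background between vectors. Here too edgeR called 0 of 86 members, where 0.331% of all genes were called, and the smallest adjusted p was 0.305. DESeq2 and the test on summed counts called 0 members, while they called 131 and 307 of all genes. More members lay lower in F0_3NC than higher: the median log2 fold change was -0.09, beside 0.00 for all genes, and 64 members were below 0, of which 33 of 39 Nduf genes and 4 of 4 Sdh genes. The groups did not overlap for 21 members, 19 of them lower in F0_3NC, beside 17% of all genes in either direction and 7.41% lower. At an unadjusted p under 0.05 there were 7 members, all lower in F0_3NC (8.14%, beside 11.9% of all genes in either direction and 5.47% lower). Without the 2 libraries the median was -0.05, with 65 members below 0. In that fit 6 members (6.98%), all lower in F0_3NC, had an unadjusted p under 0.05. Beside them were 8.87% of all genes in either direction, with 764 of 16419 genes lower. With the offset for transcript GC the median was -0.10, with 66 members below 0. There 12 members, all lower in F0_3NC, had an unadjusted p under 0.05 (14.0%). Beside them were 10.5% of all genes in either direction, with 840 of 16296 genes lower. Against genes in either direction, the share over members lay below or above depending on the fit. Against genes lower in F0_3NC, it lay above in each of these fits. Some marker lists of other cell types also differed between the 2 control groups. The epididymis markers summed to 4.89 to 9.90 CPM in F0_3NC and 16.8 to 110.8 in F0_5NC, the adipocyte markers to 19.0 to 20.1 and 20.7 to 28.2, and the skeletal muscle markers to 2.2 to 2.36 and 2.52 to 3.14, with no overlap. Their part in the lower level of members was not tested.

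The same difference was seen in the share of counts: members took 0.61% to 0.664% of the counts in F0_3NC libraries and 0.679% to 0.736% in F0_5NC libraries. F0_3NC replicate 2 held the lowest CPM of the 12 libraries for 47 of 86 members (54.7%), beside 19.2% of all genes tested. Members with a transcript GC at or above their median of 50.2% lay lower in that library by a median of 0.25 on the log2 scale (deviation -0.25), and 39 of 43 were below the mean of the 12 libraries. Below that GC the median deviation was -0.06. In F0_5251OV replicate 1 the medians were -0.15 and 0.04. The virus backbone, and any batch that followed it, cannot be told apart in this comparison.

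**Figure D3:**
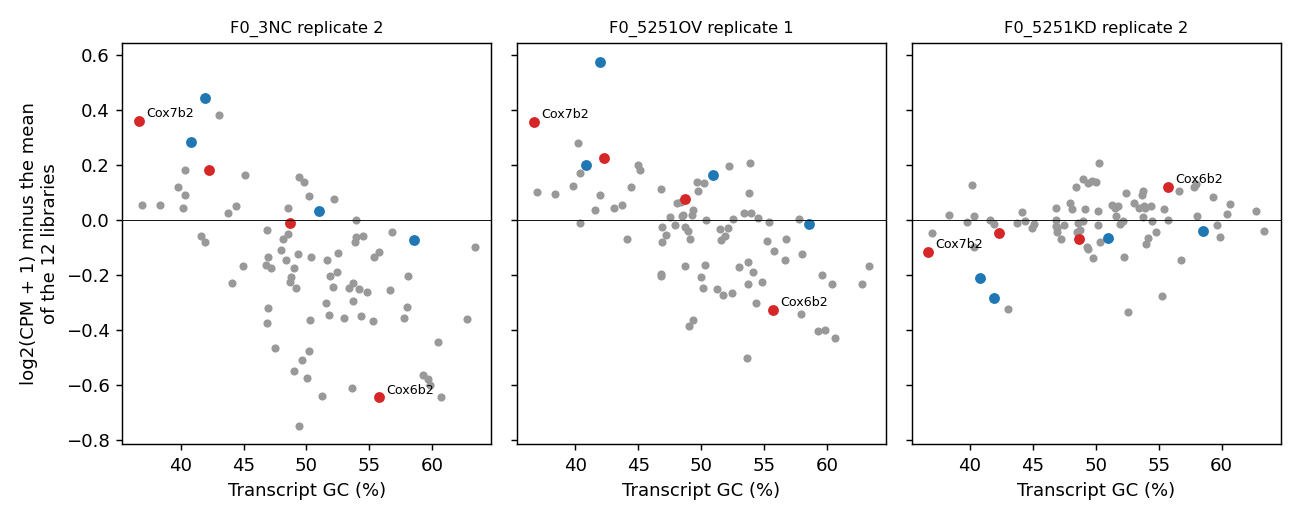
Deviation of each member's log2(CPM + 1) from its mean over 12 libraries against transcript GC, in both libraries that follow GC and, for comparison, in F0_5251KD replicate 2; testis isoforms are red and general partners blue. Members of high GC lie low in F0_3NC replicate 2 (median deviation -0.25) and in F0_5251OV replicate 1 (-0.15), with Cox6b2 among the lowest and Cox7b2 above 0, whereas Spearman's rho over members is 0.23 in the third panel and -0.54 and -0.59 in the others.

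Among single members, Ndufa2 again stood at the edge of the controls, with 98.9, 88.9 and 98.1 FPKM in F0_3NC against 132, 123 and 116 in F0_5NC (log2 fold change -0.36 ± 0.12, adjusted p = 0.305 by edgeR). All 3 F0_3NC values lay below all 3 F0_5NC values. Since F0_3NC enters both this comparison and that with F0_5251KD, the values of Ndufa2 in F0_5251KD, 111 to 113 FPKM, are given beside them. Atp5e had 172, 136 and 139 in F0_3NC and 285, 191 and 262 in F0_5NC, a log2 fold change of -0.73 ± 0.28 (adjusted p = 0.372), while F0_5251KD had 201, 201 and 85.8 and F0_5251OV 216, 296 and 161. The spread of Atp5e within F0_5251KD, from 85.8 to 201, was wider than the difference between the 2 controls. Cox7a1 (-0.56 ± 0.31) and Ndufb4c (-0.47 ± 0.21) also lay lower in F0_3NC, and the estimates of Cox7b (0.60 ± 0.34), Cox4i2 (0.23 ± 0.29) and Cox7b2 (0.18 ± 0.12) were above 0. That of Cox7b2 rested on F0_3NC replicate 2: it was 0.03 without that library, 0.02 without both libraries that follow GC and -0.01 with the offset for transcript GC. The isoforms Cox6b2 (-0.29 ± 0.17), Cox8a (-0.18 ± 0.14), Cox6b1 (-0.06 ± 0.12), Cox8c (-0.01 ± 0.07), Cycs (0.03 ± 0.14) and Cyct (0.14 ± 0.09) did not pass the test. Without both libraries Cox6b2 was at -0.12, Cox6b1 at -0.09, Cox8c at -0.04, Cycs at -0.10, Cyct at 0.07, Cox7b at 0.40 and Ndufb4c at -0.26, and with the offset Cox8a was at -0.01.

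**Figure D4:**
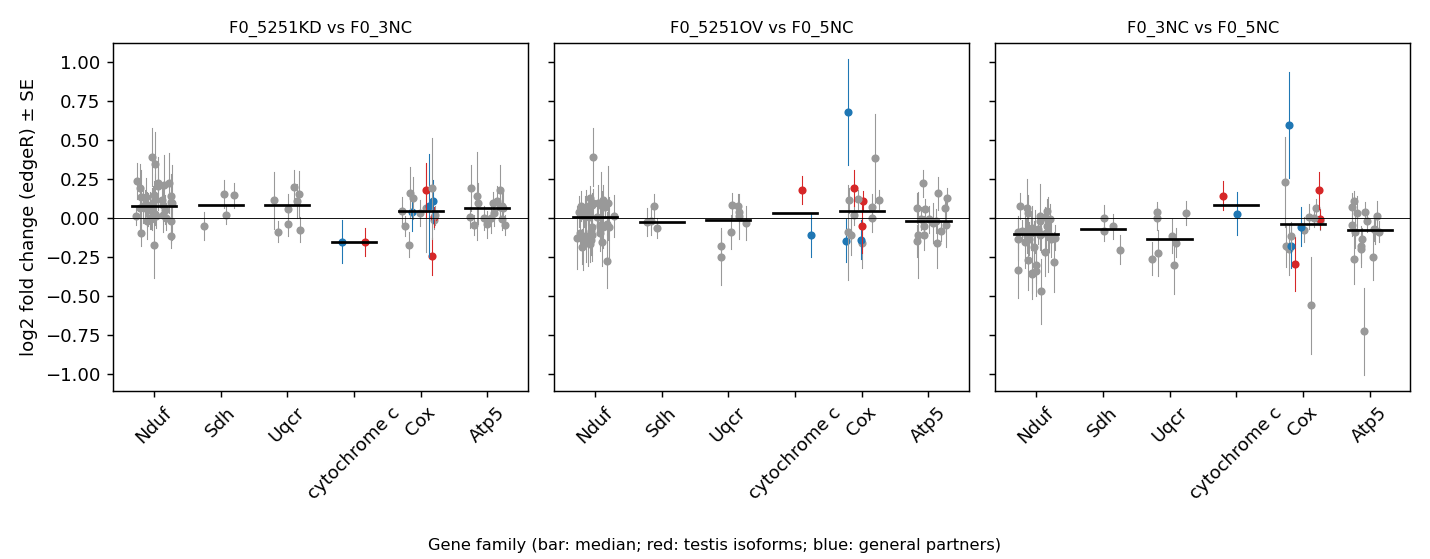
log2 fold change ± SE of the 86 members tested, by family, in the 3 comparisons, with bars at family medians. Points centre near 0 in the first 2 panels (medians over members 0.07 and -0.01) and below it between the controls (-0.09), and no member passed the test in any panel.

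The difference between the effects of knockdown and overexpression was tested as a contrast of all 4 groups. edgeR called 0 of 86 members and 0% of all genes, and the smallest adjusted p was 0.42. DESeq2 called 0 members, while it called 34 of all genes. The median over members was 0.07, with 56 of 86 above 0, and -0.02 with 38 above 0 without the 2 libraries. At an unadjusted p under 0.05 there were 4 members (4.65%, beside 11.3% of all genes), all below 0 (beside 6.08% of all genes): Cox7b2 (-0.44 ± 0.17), Cyct (-0.33 ± 0.13), Cox7a2l (-0.28 ± 0.11) and Ndufb4 (-0.25 ± 0.11). Without the 2 libraries that follow GC, Cox7b2 was at -0.13, Cyct at -0.18, Cox7a2l at -0.20 and Ndufb4 at -0.14, and with an offset for transcript GC at -0.16, -0.12, -0.28 and -0.29. None of the 4 had an unadjusted p under 0.05 without the 2 libraries (0.107, 0.128, 0.0634 and 0.164 by edgeR). There 1 other member, Cox6b1, had one and lay above 0 (1.16% of members, beside 7.81% of all genes).

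Other genes of the pathway were counted as lists. Of 46 assembly factors tested, which build the complexes but are not part of them, 0 were called by edgeR in any comparison, with medians of 0.02 between F0_5251KD and F0_3NC, -0.01 between F0_5251OV and F0_5NC and -0.05 between the controls. Unadjusted p-values under 0.05 were seen for 1, 3 and 1 of them (2.17%, 6.52% and 2.17%, beside 4.74%, 8.77% and 11.9% of all genes). Between the controls with the offset for transcript GC they were seen for 5 (10.9%, beside 10.5% of all genes). Of 12 regulators of mitochondrial gene expression, 0 were called, and 1, 2 and 0 had an unadjusted p under 0.05 (8.33%, 16.7% and 0%). Of the structural genes that the symbols leave out, 4 were tested and 0 were called, with 0 at an unadjusted p under 0.05. The 13 subunits encoded in the mitochondrial genome were not analysed here.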

How the data were processed

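Per the labels, testis RNA of 12 libraries was sequenced and the build was mm10. In the study's methods, reads from a HiSeq 2500 were aligned with SOAPaligner 2.20, allowing 2 mismatches, and no strand step is named. In the table the authors deposited, each gene has an estimated count and an FPKM per library. Not whole were 12.0% of the deposited estimated counts (tolerance 1e-06), and all were rounded. The authors' group means were not used, nor were 18 columns whose per-sample values fit no sample given here.

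edgeR 4.0.16 in R 4.3.3 (TMM factors 0.97 to 1.078, filterByExpr, quasi-likelihood F test, two-sided) was run on 16296 genes in 1 fit of 4 groups with 8 residual degrees of freedom, with Benjamini-Hochberg adjustment over all genes and a threshold of 0.05. SE are log2 fold changes over the square root of F. On simulated data the test recovered 68 of 100 genes with a 2-fold difference and 94 of 100 with a 4-fold one for F0_5251KD against F0_3NC, with 7 false calls among 16148 genes. Isoform ratios were tested by exact permutation over libraries. Transcript GC came from GENCODE (87 of 89 members), and promoters from RefSeq.

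Members and lists were chosen with earlier results of these data known. Named members were both isoforms of each pair, the 3 largest estimates in each direction per comparison with a mean of at least 1 CPM, the highest and lowest of each complex, isoforms known from other tissues and, chosen after their values were seen, members that a count of 5 or fewer or a range singles out. Alternatives were upper-quartile scaling, DESeq2 1.42.0, keeping every gene with a count, keeping genes with 1 CPM in 3 libraries, limma 3.58.1 on log2(FPKM + 1) and log2(FPKM + 0.1), the compared groups alone, summed counts, a replicate block and leaving out each library. Leaving out both libraries that follow GC, and an offset for transcript GC in 20 bins, were added after seeing the data.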

Additional observations from a re-analysis of the deposited data

How the results depend on the processing

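The count of members called stayed at 0 in every comparison under every alternative run. Of the alternatives for the comparisons' counts, medians and isoform ratios, 263 kept direction and side of the threshold, 10 turned direction and 3 moved; none of these values was past a threshold. The median log2 fold change of members between F0_5251KD and F0_3NC ranged from 0.005 to 0.10 when 1 library was left out, with 0.005 without F0_3NC replicate 2. The median of the difference of effects ranged from 0.00 to 0.12, again lowest without F0_3NC replicate 2, and was -0.017 without both libraries that follow GC. Leaving out 1 library, the isoform log2 ratios that turned direction ranged from -0.072 to 0.31 (Cox6b2 to Cox6b1), -0.50 to 0.075 (Cox7b2 to Cox7b) and -0.11 to 0.041 (Cyct to Cycs) between F0_5251KD and F0_3NC, from -0.12 to 0.39 (Cox6b2 to Cox6b1) between F0_5251OV and F0_5NC, and from -0.031 to 0.29 (Cox8c to Cox8a) between the controls. Without both libraries that follow GC, the Cox6b2 to Cox6b1 ratio between F0_5251KD and F0_3NC was -0.072.

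Single isoforms turned direction as follows when 1 library was left out. Between F0_5251KD and F0_3NC, Cox6b2 ranged from -0.012 to 0.30, Cox8c from -0.016 to 0.028, Cox6b1 from -0.039 to 0.091, Cox7b from -0.34 to 0.29 and Cox8a from -0.019 to 0.18. Between F0_5251OV and F0_5NC, Cox6b2 ranged from -0.15 to 0.11 and Cox8a from -0.25 to 0.018. Between the controls, Cox8c ranged from -0.058 to 0.024, Cox6b1 from -0.13 to 0.016 and Cycs from -0.082 to 0.15, and for the difference of effects Cycs ranged from -0.16 to 0.11. With limma on log2(FPKM + 1) or log2(FPKM + 0.1), Cox8c was at -0.002 between F0_5251KD and F0_3NC with both, Cycs at -0.014 and -0.015 between the controls and at 0.035 and 0.037 for the difference of effects. Without both libraries that follow GC, Cox6b2 was at -0.001 between F0_5251KD and F0_3NC, at 0.099 between F0_5251OV and F0_5NC and at -0.10 for the difference of effects, and Cycs at -0.10 between the controls and 0.24 for the difference. With the offset for transcript GC, Cox8a was at -0.033 between F0_5251KD and F0_3NC and -0.018 for the difference, Cox7b2 at -0.013 and Cycs at -0.14 between the controls, and Cycs at 0.21 for the difference. For the 2 GC alternatives, the construction itself removes the libraries or the slope on GC; the cause of the other changes was not tested.

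Same-numbered libraries did not deviate together as a set (r from -0.33 to 0.25, over 0.1 in 3 of 18 pairs, and 5 of 12 libraries correlated best with their own number). These values give no sign of pairing by number but cannot exclude it. The 2 libraries that follow GC enter them and correlated with each other at 0.55. With the replicate number as a block, 0 members were called and the medians were 0.07, -0.01 and -0.09 in the 3 comparisons and 0.07 for the difference. With 3 libraries a group, changes under 2-fold of single members may be missed. In simulations, 68 to 72 of 100 2-fold changes were recovered in the 3 comparisons. The changed genes were drawn at random from all genes tested, so this rate is not specific to members, and smaller changes were not simulated.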
